A study of Mus musculus with 9 samples.

Results

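Liver circular RNAs (circRNAs) of mice given dmPGE2 before an acetaminophen overdose were compared with those of mice given the overdose alone. All mice were wild-type C57 BL6 animals, 8 weeks old and about 20 g in weight. The APAP group received 500 mg/kg acetaminophen (APAP) by intraperitoneal injection. The dmPGE2+APAP group received 300 μg/kg dmPGE2 by the same route, with 500 mg/kg APAP following 1 hour later. In both groups the liver was collected 6 hours after APAP. The comparison rests on 6 of the 9 libraries of the series, 3 in each group. The other 3 are saline controls. They serve here as a level to set beside the 2 groups and enter the alternative fits of all 9 libraries. Both groups carry APAP, so the comparison shows dmPGE2 on top of APAP. A group given dmPGE2 without APAP was not analysed here. Since no label ties libraries to numbered animals, the p-values cover only the spread between these samples, which may in part be technical.

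A circRNA forms when the spliceosome joins the end of an exon back to the start of the same or an earlier exon, which closes the RNA into a ring without free ends. Rings are degraded slowly compared with most linear messenger RNAs, and many come from the coding exons of widely expressed genes. Acetaminophen is turned by hepatocyte cytochrome P450 enzymes into a reactive quinone imine that depletes glutathione and kills the hepatocytes around the central veins. dmPGE2 (dimethyl prostaglandin E2) is a long-lived analogue of prostaglandin E2, a lipid mediator that acts through EP receptors, some of which raise cyclic AMP.

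The series holds 11312 circRNAs, of which 10060 had a read across the back-splice junction in at least 1 of the 6 libraries. Those with 5 or more reads in 3 or more of the 6 were tested, which left 3482 circRNAs. Of these, 1633 had reads in all 6 libraries and are reported apart. The read threshold fell in a populated part of the table: 834 circRNAs reached 5 reads in exactly 3 libraries and 1394 in exactly 2. Summed over their circRNAs, 2067 of 3929 host genes passed the same threshold and 1238 had reads in all 6 libraries. Counts are given as reads and as CPM, the reads per 1000000 back-splice reads of that library. The smallest count above 0 in the table was 2, so a circRNA listed at 0 need not have been without a read.

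Libraries held 69268 to 109453 back-splice reads in the APAP group and 99102 to 120531 in the dmPGE2+APAP group. APAP 3 stood apart, with the fewest reads and 3181 circRNAs against 4374 to 5214 in the other 5. Its reads at back-splice sites were circular in 36.7% of cases, against 42.8% to 46.1% in the others. This share covers only the 1232 circRNAs with reads in all 6 libraries whose other reads at these sites could be split by library. Of the saline columns, the third held 4362 reads and is too shallow to read for single circRNAs. It still enters the fits of all 9 libraries, which is a limit of those fits. The saline columns carry a code that no label explains and were assigned by elimination. The liver label was checked on hepatocyte genes: 18 of 27 had a circRNA in the table, Alb, Apob and Cps1 among them. A circRNA table cannot show whether their linear messenger RNAs were present. In bulk tissue, fewer cells of a type and less RNA per cell cannot be told apart.

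The junctions below identify some of the rings named in this comparison. The first 4 are rings with reads in all 6 libraries that passed the test. The Kcnn2 ring passed too and is not among the lines. The last 4 are rings listed at 0 in every library of 1 group, and none of them passed. Each line reads 5′ to 3′ across the closure of the ring. The 15 bases in lower case end the last exon of the ring and the 15 bases in capitals begin its first exon. In the Neat1 line they end and begin the ring itself, at points inside 1 annotated exon. They were read from GENCODE M21 transcripts (build GRCm38) at the ends the table gives.
Trpc6 mmu_circ_0001743, chr9:8634047-8658377, plus strand: cttgacaaaaatcagTTTGTGGCTCATCCA
Neat1 novel_circ_0006472, chr19:5827505-5828042, minus strand: ggcacaagccaggagACTCTGAAGACATCC
Upp2 novel_circ_0008623, chr2:58771421-58780148, plus strand: tgtgtggcctgagagTTTGTCTGCGTTGGT
Rmdn2 novel_circ_0005332, chr17:79650302-79672573, plus strand: gttgtcaccaaagagGTATATTACAGCTAA
Wwp2 novel_circ_0013370, chr8:107452979-107458001, plus strand: acaatggcggcaaaaTTCCATTGTGATGAC
Sfpq novel_circ_0009808, chr4:127025855-127027518, plus strand: atgggaagcgacatgGGAGAGAGAAACACC
Nr1h4 novel_circ_0000600, chr10:89473752-89498417, minus strand: gaattcgaaagagtgGTATGCTAACAGAAC
Fbxo31 novel_circ_0013451, chr8:121559020-121560462, minus strand: ggtgggaggcaggagTGCTTCACCGATACA
The Trpc6 ring ran from the start of exon 4 to the end of exon 10 of 13 of its transcript, and the table lists 2 of the exons between. The Upp2 ring ran from exon 4 to exon 7 of 8 and the Rmdn2 ring from exon 3 to exon 10 of 11. All annotated exonic bases inside these 3 rings were coding. The Neat1 ring lay inside 1 long annotated exon, chr19:5824708-5845478, so its ends were not GENCODE exon ends. Of 3306 tested exonic circRNAs, 3189 (96.5%) had both ends at annotated exon ends.

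Few circRNAs separated the groups. Of the 3482 tested circRNAs, 0 passed edgeR's quasi-likelihood test at a Benjamini-Hochberg adjusted p under 0.05 (0% called), and 98 had an unadjusted p under 0.05 (2.81%). DESeq2 and limma-voom called 5 each on the same set. Among the 1633 circRNAs with reads in all 6 libraries, 5 passed (0.306%) and 88 had an unadjusted p under 0.05. Those of Kcnn2, Rmdn2 and Upp2 rose with dmPGE2, and 2 fell, from Trpc6 and Neat1. In the separate fit of all 3482 tested circRNAs, the Kcnn2 ring had an adjusted p of 0.280 and the other 4 of 0.99999 by the same test. The 2 fits differ in the unadjusted p as well as in the adjustment. For the Kcnn2 ring the unadjusted edgeR p was 8.0e-05 in that fit and 2.9e-06 among circRNAs with reads in all 6. The next circRNA in order, of Elf2, had an adjusted p of 0.357.

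The ring of Kcnn2, which encodes a small-conductance potassium channel opened by calcium, showed the largest rise of the 5. mmu_circ_0000870 is coding exon 6 of 11 (419 bases, chr18:45592006-45592424, plus strand), closed on itself. It had 15, 17 and 7 reads in the APAP libraries and 68, 66 and 53 in the dmPGE2+APAP libraries. Every dmPGE2+APAP library was above every APAP library. The level was 131.5 ± 27.7 CPM with APAP and 564 ± 102 CPM with dmPGE2+APAP (SD, n = 3 each). The log2 fold change was 2.08 ± 0.44 (SE), with an edgeR adjusted p of 0.00478 among circRNAs with reads in all 6. The saline columns had 48, 83 and 0 reads, of which the first 2 correspond to 310.8 and 638.6 CPM. Leaving out dmPGE2+APAP 2 or dmPGE2+APAP 3 ended the call, and the adjusted p ranged from 0.0170 to 0.403 over the 6 libraries left out.

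Reads at the Kcnn2 ring's own splice sites that did not cross the back-splice junction numbered 11, 19 and 30 with APAP and 33, 25 and 28 with dmPGE2+APAP. These non-junction reads come from linear or other RNA of the gene. Their log2 fold change was 0.39 ± 0.52 (edgeR adjusted p = 0.940). The ratio of circular to non-junction reads was higher by 1.60 ± 0.66 on the log2 scale, with an unadjusted p of 0.0202 and an adjusted p of 0.692 by the edgeR interaction test. The rise was thus measured in back-splice reads, and a change relative to the gene's other reads did not pass.

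A pair of rings fell. Trpc6 encodes a calcium-permeable channel opened by diacylglycerol downstream of phospholipase C-coupled receptors. Its only listed ring had 37, 49 and 29 reads with APAP and 16, 5 and 10 with dmPGE2+APAP. The groups did not overlap, at 402.3 ± 55.4 and 90.1 ± 41.2 CPM (SD, n = 3 each). The log2 fold change was -2.09 ± 0.53 with an edgeR adjusted p of 0.0374. The saline columns listed 0, 6 and 0 reads. Leaving out any 1 of the 6 libraries ended the call (adjusted p 0.0594 to 0.450). Tested as a host gene on the same reads, Trpc6 had an adjusted p of 0.0547 among those with reads in all 6.

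Neat1 is a long non-coding RNA on which nuclear paraspeckles are built, and its most abundant ring fell. novel_circ_0006472 had 36, 53 and 39 reads with APAP and 17, 7 and 15 with dmPGE2+APAP. The levels were 459.5 ± 118 and 114.1 ± 38.0 CPM (SD, n = 3 each), with no overlap between groups. The log2 fold change was -1.94 ± 0.50 and the edgeR adjusted p 0.0374. It was listed at 0 in all 3 saline columns. Here too the call ended without any 1 of the 6 libraries (adjusted p 0.0768 to 0.440).

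Upp2 encodes uridine phosphorylase 2, a liver enzyme that breaks down uridine, and Rmdn2 a protein named for its link to microtubules. The Upp2 ring had 152, 176 and 67 reads with APAP and 224, 249 and 285 with dmPGE2+APAP, or 1325 ± 327 and 2285 ± 369 CPM (SD, n = 3 each). It rose by 0.79 ± 0.20 on the log2 scale (edgeR adjusted p = 0.0374), and its saline columns held 261, 232 and 12 reads. The Rmdn2 ring had 33, 58 and 18 reads with APAP and 84, 88 and 105 with dmPGE2+APAP, or 364.5 ± 145 and 833.2 ± 119 CPM. It rose by 1.18 ± 0.31 (adjusted p = 0.0413), and its saline columns held 152, 144 and 6 reads. In both rings the 2 groups did not overlap, and APAP 3 was the lowest library. Without APAP 3 the log2 fold change was 0.58 for Upp2 (edgeR adjusted p = 0.750) and 0.98 for Rmdn2 (0.498). The Upp2 call ended without APAP 1, APAP 3, dmPGE2+APAP 2 or dmPGE2+APAP 3 (adjusted p 0.0170 to 0.766) and the Rmdn2 call without any library but APAP 2 (0.0170 to 0.717). Both ended with DESeq2 (0.170 and 0.159) and without TMM scaling (0.0610 and 0.0692). With all 9 libraries in the fit, 0 of the 5 rings passed, and the Kcnn2 ring had the smallest adjusted p of them, 0.0949.

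**Figure D1:**
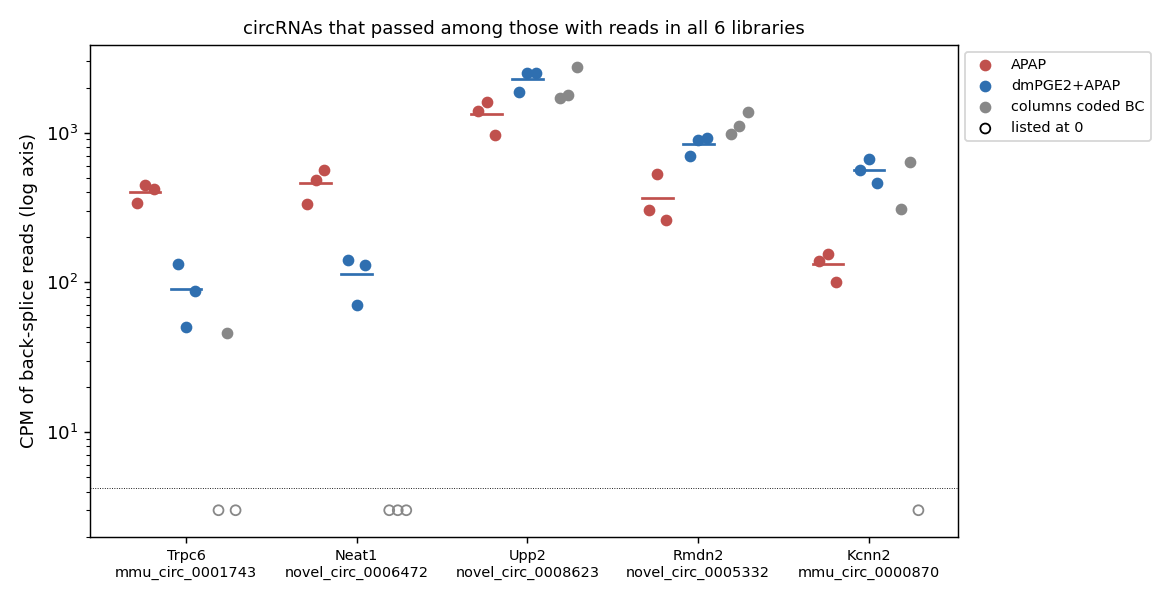
CPM of back-splice reads (log axis) of the 5 circRNAs that passed among those with reads in all 6 libraries, with 1 point per library, horizontal bars at the means of the APAP and dmPGE2+APAP groups and open points for libraries listed at 0. The Trpc6 and Neat1 rings lay lower in all 3 dmPGE2+APAP libraries, and the Upp2, Rmdn2 and Kcnn2 rings lay higher. Grey points are the columns coded BC.

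Over all 1633 circRNAs with reads in all 6 libraries, the median absolute log2 fold change was 0.31, against a median standard error of 0.53. A total of 769 had a positive and 864 a negative log2 fold change. Those past 2-fold numbered 101, of which 38 were higher and 63 lower with dmPGE2+APAP. Among all 3482 tested circRNAs, CPM ranges of the groups lay apart with dmPGE2+APAP above in 203 (5.83%) and below in 167 (4.80%), or 370 in all (10.6%). Among those with reads in all 6 they did not overlap in 169 (10.3%), with dmPGE2+APAP above in 81 (4.96%) and below in 88 (5.39%). The median coefficient of variation between libraries was 0.333 with APAP and 0.307 with dmPGE2+APAP.

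**Figure D2:**
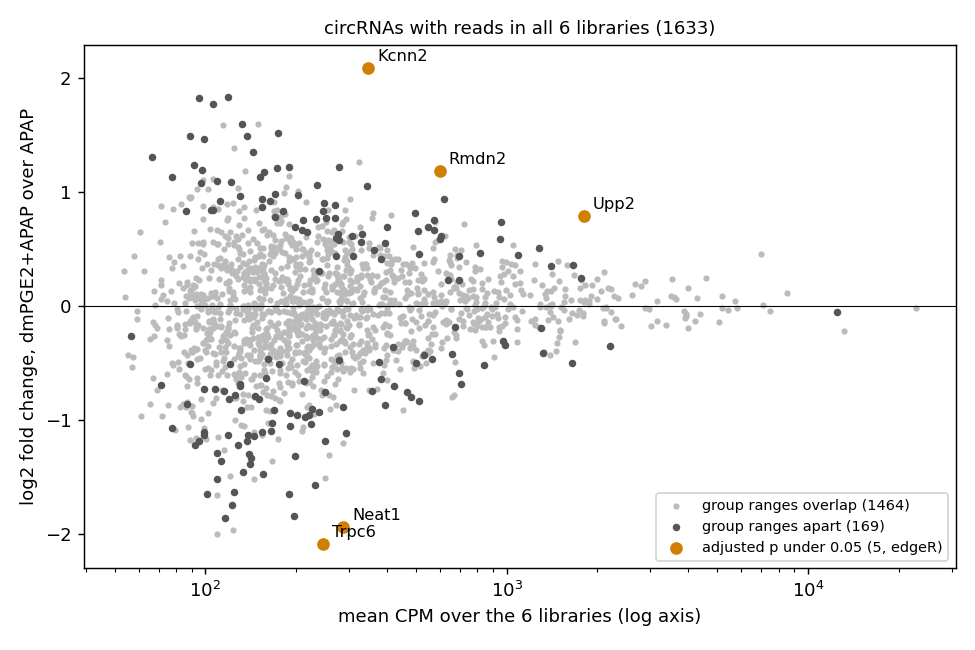
Log2 fold change of dmPGE2+APAP over APAP (vertical axis) against mean CPM over the 6 libraries (log axis) for the 1633 circRNAs with reads in all 6. Dark points are the 169 circRNAs whose group ranges did not overlap, and the 5 orange points passed the edgeR test.

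The 8 circRNAs with the smallest p among those whose dmPGE2+APAP range lay above came from Cfhr3, Slco1b2, Foxn3, Nhlrc2, Canx, Mtmr3, Rbbp4 and Tasp1. None passed the edgeR test (adjusted p 0.357 to 0.612). The intronic ring of Cfhr3, a complement factor H-related gene, had 43, 53 and 28 reads with APAP and 104, 63 and 106 with dmPGE2+APAP (log2 fold change 0.94 ± 0.30). The ring of Slco1b2, a hepatocyte uptake transporter of bile acids and drugs, had 80, 83 and 47 reads and then 134, 108 and 157 (0.73 ± 0.25). Rings of the forkhead factor Foxn3 (0.58 ± 0.25) and the endoplasmic reticulum chaperone Canx (0.75 ± 0.31) were also among the 8. That of Tasp1, a protease, had the largest of the 8 at 1.51 ± 0.60, from 12, 8 and 6 reads against 19, 38 and 27.

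On the other side the 8 came from Ugcg, Rsu1, Arhgap10, Senp6, Spred1, Zmynd8, Fam53b and Ehbp1, and none passed the edgeR test (adjusted p 0.357 to 0.612). The ring of Ugcg, which encodes glucosylceramide synthase, had 23, 30 and 31 reads with APAP and 10, 13 and 4 with dmPGE2+APAP, a log2 fold change of -1.85 ± 0.59. That of Rsu1 had 51, 25 and 24 and then 17, 14 and 7 (-1.58 ± 0.53). Spred1, an inhibitor of the Ras to MAP kinase pathway, gave 89, 95 and 65 reads against 60, 69 and 47 (-0.69 ± 0.28). Ehbp1 was the most abundant of the 8, at 1948 ± 406 and 1341 ± 70.4 CPM (SD, n = 3 each), with a log2 fold change of -0.50 ± 0.20.

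None of the 8 most abundant circRNAs passed the edgeR test. The Rnf169 ring mmu_circ_0001605 led with 2333, 2632 and 1668 reads and then 2852, 2156 and 2510 (log2 fold change -0.02 ± 0.11). The Gigyf2 ring gave -0.06 ± 0.13, the Nfix ring -0.05 ± 0.14, the Tmem56 ring 0.01 ± 0.14 and the Ttc39c ring 0.11 ± 0.14. For Aass, which encodes an enzyme of lysine breakdown, the estimate was -0.22 ± 0.13 (edgeR adjusted p = 0.849). An intergenic circRNA of chromosome 4, novel_circ_0010359, had 1163, 971 and 0 reads with APAP and 0, 918 and 845 with dmPGE2+APAP. It was thus listed at 0 in 1 library of each group and among the most abundant circRNAs in the others, and its estimate in the fit of all tested circRNAs was -0.29 ± 1.28. The eighth, Rmdn2 novel_circ_0005331, was at 0.46 ± 0.14 among circRNAs with reads in all 6 (edgeR unadjusted p = 0.00144, adjusted p = 0.357).

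Such uneven rows limit the comparison. Of circRNAs with at least 50 reads in some APAP library, 12 of 474 (2.53%) were listed at 0 in another APAP library, and 14 of 527 (2.66%) in the dmPGE2+APAP group. With at least 20 reads the shares were 13.4% and 10.8%. A further 2177 circRNAs were listed in the APAP group alone and 2771 in the dmPGE2+APAP group alone, 4215 of them in a single library, and 5112 were listed in both.

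A stricter pattern took circRNAs with at least 5 reads in all 3 libraries of one group and listed at 0 in all 3 of the other. Of the 3482 tested circRNAs, 33 were so present with dmPGE2+APAP and 12 with APAP, and none passed the edgeR test. The APAP side needs 5 reads in APAP 3, which held 69268 reads, against 99102 or more in each dmPGE2+APAP library. The 2 counts are thus not like for like, and the part that depth plays was not tested. By the smallest p, the APAP side was led by rings of Wwp2, a ubiquitin ligase, Sfpq, a paraspeckle protein, and Neat1, and by a ring shared by Srcap and Gm42715. The Wwp2 ring had 12, 16 and 18 reads, the Sfpq ring 15, 10 and 16, the Neat1 ring novel_circ_0006468 8, 15 and 14, and the Srcap ring 10, 13 and 10. In the first 2 saline columns the Wwp2 ring had 5 and 8 reads, and the Sfpq and Neat1 rings were listed at 0.

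The dmPGE2+APAP side was led by rings of Fbxo31, Nr1h4, Plekha5 and Lima1. Nr1h4 encodes the bile acid receptor FXR and Lima1 an actin-binding protein. The Fbxo31 ring had 5, 12 and 53 reads, the Nr1h4 ring 11, 9 and 24, the Plekha5 ring 6, 17 and 14 and the Lima1 ring 8, 11 and 16. In the first 2 saline columns the Fbxo31 ring was listed at 0, and the Nr1h4 ring had 3 and 26 reads, the Plekha5 ring 0 and 12 and the Lima1 ring 15 and 20. No fold is given for these, since the other group was listed at 0. Summed over all its rings, Nr1h4 had 391, 491 and 349 reads with APAP and 533, 477 and 511 with dmPGE2+APAP (log2 fold change 0.08 ± 0.14).

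Host genes were then compared by their summed back-splice reads. Of 2067 tested host genes, 1 passed (0.0484%), Neat1, which fell. Among the 1238 with reads in all 6 libraries, 8 passed (0.646%). Kcnn2, Upp2 and Rmdn2 rose, and Neat1, Zfp609, Akap1, Arhgap10 and Spopl fell. Unadjusted p-values under 0.05 numbered 62 (3.00%) and 69 (5.57%). Group ranges did not overlap in 227 tested host genes (11.0%), 122 above (5.90%) and 105 below (5.08%), and those of Rmdn2, Zfp609 and Spopl overlapped. Among host genes with reads in all 6 they lay apart in 138 (11.1%), 69 above and 69 below.

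Neat1 had 88, 97 and 65 back-splice reads with APAP and 20, 7 and 15 with dmPGE2+APAP. In CPM the groups lay far apart, at 878.1 ± 64.7 and 122.4 ± 48.2 (SD, n = 3 each). The log2 fold change was -2.78 ± 0.39 with an edgeR adjusted p of 0.00487 over all tested host genes, and -2.80 ± 0.42 with 1.83e-06 among those with reads in all 6. The second call held in all 6 fits with a library left out. The first held in 3 of 6 and ended without APAP 1, APAP 2 or dmPGE2+APAP 3 (adjusted p up to 0.161). The saline columns listed 0, 3 and 0 reads.

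The Neat1 sum came from 11 rings that share ends within a few kilobases of chromosome 19. Of these, 10 were listed in the APAP group and 2 with dmPGE2+APAP. Without its most abundant ring, novel_circ_0006472, the others summed to 52, 44 and 26 reads with APAP and 3, 0 and 0 with dmPGE2+APAP. The lower sum was therefore not carried by that ring alone. Non-junction reads at that ring's sites could not be split by library in the table, so the linear Neat1 RNA was not analysed here.

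Akap1, Zfp609 and Spopl fell by the edgeR test, but each sum was dominated by 1 ring that was listed at 0 in some libraries. Akap1 encodes an anchor that holds protein kinase A at the outer mitochondrial membrane. It had 128, 117 and 124 reads with APAP and 121, 10 and 6 with dmPGE2+APAP (log2 fold change -1.74 ± 0.39, adjusted p = 0.0127). Its intronic ring novel_circ_0001607 accounted for 104, 0 and 0 of the latter. The estimate ran from -4.11 without dmPGE2+APAP 1 to -1.23 without dmPGE2+APAP 3. The call ended with DESeq2 (adjusted p = 0.997) and with robust dispersion in edgeR (0.983).

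Zfp609 is host to a circRNA reported in many mouse and human tissues. Its sums were 176, 174 and 11 reads with APAP and 21, 6 and 14 with dmPGE2+APAP, a log2 fold change of -3.23 ± 0.44 (edgeR adjusted p = 2.9e-07). That ring, mmu_circ_0001797, had 171, 160 and 0 reads and then 0, 0 and 0, so APAP 3 lay with the dmPGE2+APAP libraries. Its other rings summed to 5, 14 and 11 reads and then 21, 6 and 14. The first 2 saline columns held 207 and 155 reads of it. The call held without any single library but ended with DESeq2 (adjusted p = 0.171), with robust dispersion (0.779) and over all tested host genes (0.124).

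Spopl, an adaptor of cullin-3 ubiquitin ligases, had 2, 126 and 54 reads with APAP and 16, 15 and 17 with dmPGE2+APAP (-2.15 ± 0.55, edgeR adjusted p = 0.0325). Its main ring mmu_circ_0000989 had 0, 118 and 49 reads with APAP and was listed at 0 with dmPGE2+APAP. The groups overlapped, since APAP 1 was the lowest of the 6 libraries. The estimate ran from -2.72 without APAP 1 to -1.35 without APAP 2, and was -2.04 without APAP 3 (edgeR adjusted p = 0.0556). The call ended without APAP 2, APAP 3 or dmPGE2+APAP 1, with DESeq2 (adjusted p = 0.997) and with limma-voom (0.955). Hipk3, another widely reported host, had its main ring mmu_circ_0001052 at 196, 0 and 0 reads with APAP and at 0 in all dmPGE2+APAP libraries, and it did not enter the test.

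**Figure D3:**
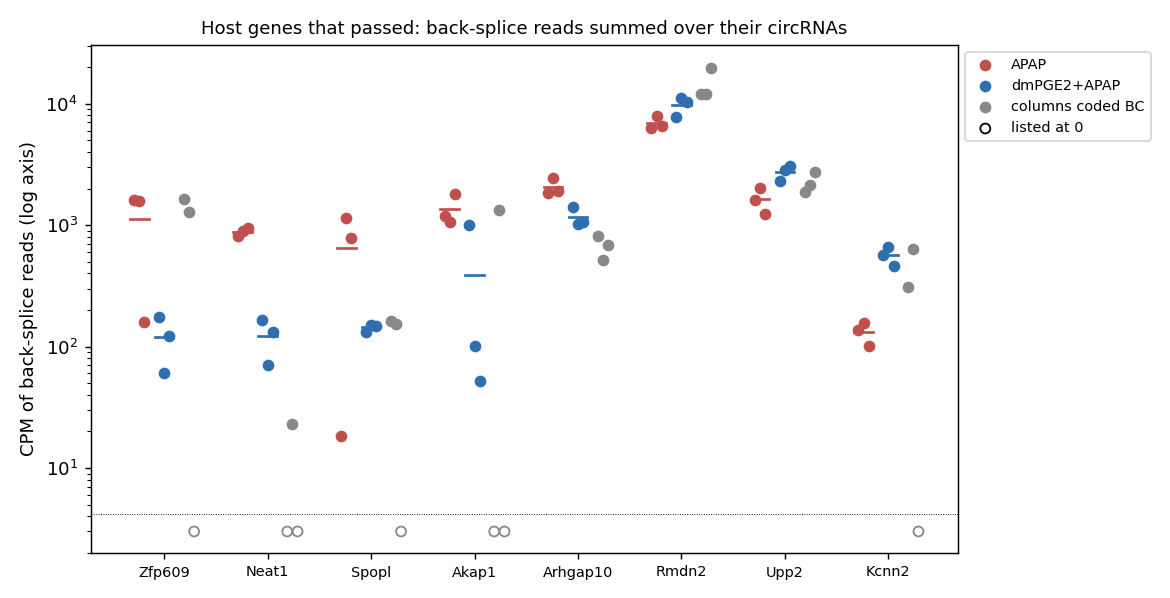
CPM of back-splice reads summed per host gene (log axis) for the 8 host genes that passed among those with reads in all 6 libraries, with 1 point per library, bars at the means of the APAP and dmPGE2+APAP groups and open points for libraries listed at 0. Neat1 and Kcnn2 separated the groups without overlap, whereas 1 APAP library of Zfp609 and of Spopl and 1 dmPGE2+APAP library of Akap1 lay with or near the other group.

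Arhgap10, Rmdn2 and Upp2 each gave several rings, which allowed the rings of 1 gene to be set beside each other. The Arhgap10 sum was 199, 267 and 131 reads with APAP and 170, 102 and 121 with dmPGE2+APAP, or 2054 ± 335 and 1165 ± 213 CPM (SD, n = 3 each). It fell by 0.81 on the log2 scale (SE 0.21, edgeR adjusted p = 0.0378), a call that ended without APAP 1, APAP 2, dmPGE2+APAP 2 or dmPGE2+APAP 3 and with DESeq2 (0.0920). All 6 of its tested rings had a negative estimate, from -1.64 ± 0.60 for novel_circ_0013830 to -0.36 ± 1.86 for novel_circ_0013827. Non-junction reads, where tested, ran from -0.80 ± 0.28 for novel_circ_0013830 (edgeR adjusted p = 0.261) to -0.03 ± 0.46 for novel_circ_0013835 (0.994). The saline columns of the sum held 125, 67 and 3 reads.

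Rmdn2 rose as a host gene by 0.50 ± 0.13 on the log2 scale (edgeR adjusted p = 0.0325), from 683, 865 and 453 reads to 929, 1103 and 1185. Its 4 rings that start at the same acceptor, chr17:79650302, end further and further along the gene. The shortest, novel_circ_0005330, had 6, 7 and 5 reads and then 3, 8 and 4 (-0.40 ± 1.61 in the fit of all tested circRNAs). The next and most abundant, novel_circ_0005331, had 588, 741 and 391 reads and then 729, 936 and 993 (0.48 ± 0.18). The ring after it, novel_circ_0005332, is the one that passed and gave 1.20 ± 0.32 in the same fit, and the longest, novel_circ_0005333, 0.64 ± 0.26. Non-junction reads of novel_circ_0005332 were 65, 100 and 51 with APAP and 87, 111 and 142 with dmPGE2+APAP. Their log2 fold change was 0.55 ± 0.29 (edgeR adjusted p = 0.794). Non-junction reads of novel_circ_0005331 gave 0.72 ± 0.26 (edgeR adjusted p = 0.305) and those of novel_circ_0005333 0.60 ± 0.31 (0.737).

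Upp2 rose as a host gene by 0.74 ± 0.19 (edgeR adjusted p = 0.0325), from 176, 222 and 86 reads to 279, 279 and 354. Most of these reads were of the ring that passed. The next most abundant ring, novel_circ_0008620, shared its donor and had 15, 26 and 8 reads against 22, 17 and 6 (-0.25 ± 0.70). Without APAP 3 the host estimates were 0.56 for Upp2 (edgeR adjusted p = 0.287) and 0.43 for Rmdn2 (0.140). The Upp2 call ended without any library but APAP 2, and the Rmdn2 call without APAP 1, APAP 3, dmPGE2+APAP 2 or dmPGE2+APAP 3. Both ended with DESeq2, with an adjusted p of 0.118 for Rmdn2. The Kcnn2 host call, from the same ring as above, ended without APAP 3, dmPGE2+APAP 1 or dmPGE2+APAP 2 (0.0151 to 0.127), and was at 1.91 without APAP 3 (0.0556). With all 9 libraries in the fit, Neat1 (0.00465) and Zfp609 (0.000826) alone of the 8 passed.

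**Figure D4:**
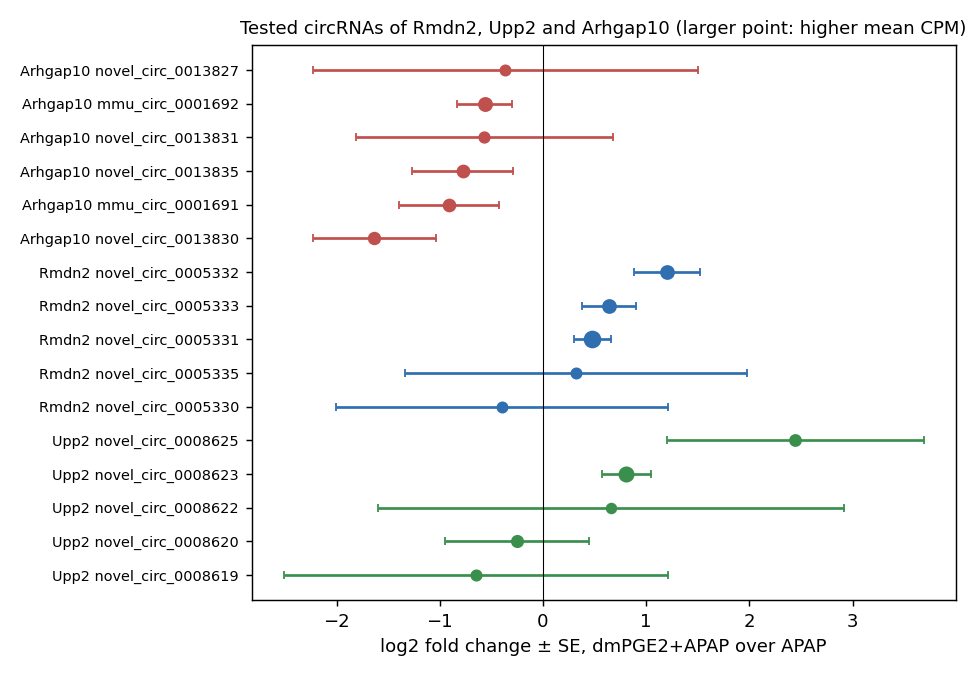
Log2 fold change of dmPGE2+APAP over APAP with its SE for each tested circRNA of Upp2, Rmdn2 and Arhgap10, from the fit of all tested circRNAs, with larger points for higher mean CPM. The 6 Arhgap10 rings lay below 0, and abundant rings had narrower errors than rare ones.

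Host genes with at least 2 rings and group ranges apart were taken next by the smallest p, and none passed the edgeR test over all tested host genes (adjusted p 0.575 to 1.00). Above with dmPGE2+APAP lay Nhlrc2, Aff1, Cfhr3, Mtmr3 and Cab39l. Aff1, a subunit of complexes that promote transcription elongation, had 50, 36 and 45 reads and then 92, 98 and 95 (0.88 ± 0.32 among host genes with reads in all 6). Cab39l had 2, 2 and 0 reads and then 43, 9 and 11. Below lay Sfpq, Atrx, Cul4a, Kif21a and Msrb1. Atrx, a chromatin remodeller, had 21, 26 and 29 reads and then 10, 5 and 8 (-1.99 ± 0.63, adjusted p = 0.230 among those with reads in all 6). Cul4a, a ubiquitin ligase scaffold, had 31, 55 and 28 and then 8, 21 and 17 (-1.48 ± 0.54). Kif21a, with 14, 6 and 9 reads, and Msrb1, with 5, 10 and 12, were listed at 0 in all dmPGE2+APAP libraries.

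Whether a ring's share of its host gene's back-splice reads changed was tested in 2333 circRNAs of 740 host genes with at least 2 tested rings. None passed the edgeR test of the difference (0% called), and 38 had an unadjusted p under 0.05. The ratio of circular to non-junction reads could be tested in 1232 circRNAs. None passed there either (0%), 75 had an unadjusted p under 0.05, and the smallest adjusted p was 0.603. Rings of Rsu1 (-2.19 ± 0.73), Mtmr3 (2.15 ± 0.76), Ehbp1 (-1.51 ± 0.45) and Tasp1 (1.55 ± 0.58), named above, were among those at that adjusted p. Non-junction reads themselves gave 0 calls of 1202, with 80 at an unadjusted p under 0.05 and a smallest adjusted p of 0.133.

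Library-wide measures did not separate the groups. Exonic circRNAs took 95.4% ± 0.387 of back-splice reads with APAP and 95.4% ± 0.344 with dmPGE2+APAP (SD, n = 3 each, exact permutation p = 0.9). The 10 most abundant circRNAs took 9.76% ± 0.433 and 9.48% ± 0.319 (exact permutation p = 0.5). Thinned to 69268 reads, libraries held 4279 ± 982 and 4724 ± 392 circRNAs (n = 3 each, exact permutation p = 0.6). The circular share at the back-splice sites of the 1232 circRNAs of the ratio test was 41.9% ± 4.80 and 44.0% ± 1.05 (n = 3 each, exact permutation p = 0.6). These tests are two-sided, and with 20 arrangements of 3 against 3 the smallest p they can give is 0.1.

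Medians by structure lay near 0. The median log2 fold change among circRNAs with reads in all 6 libraries was -0.03 for 1552 exonic, -0.04 for 66 intronic and 0.09 for 15 intergenic circRNAs. By the number of exons the table lists, it was -0.05 for 155 rings with 1, -0.03 for 1359 with 2 to 5 and 0.11 for 38 with at least 6. The listed number can differ from the annotated exons between the ends, as for the Trpc6 ring, with 2 listed and 7 annotated. By span, the median was -0.02 for rings up to 1 kb, -0.05 for 1 to 10 kb and -0.00093 for over 10 kb. Of the 5 that passed, 2 carried the table's mmu_circ identifiers and 3 its other kind.

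Host genes were also read by function. The prostaglandin and cyclic AMP signalling list had 14 of 54 genes tested, and 10 with reads in all 6 libraries. Of the 14, 0 passed, and their median log2 fold change was -0.05, beside 0.03 over all tested host genes. Akap1, which fell, passed among the 10. Summed over the list, the level was 6653 to 7117 CPM with APAP and 5035 to 6480 CPM with dmPGE2+APAP, without overlap. Akap1 alone held 1178, 1069 and 1790 CPM of these sums with APAP and 1004, 101 and 52.3 CPM with dmPGE2+APAP. The gap therefore does not show a fall across the list, and the sum without Akap1 was not tested. Of the 14, 6 had a higher mean with dmPGE2+APAP, beside 1046 of all 2067 tested host genes. Group ranges lay apart in 1 of the 14 above and 2 below, beside 5.90% and 5.08% of all tested host genes. The most abundant member, Ptgr2, which encodes a prostaglandin reductase, had 114, 155 and 79 reads with APAP and 154, 106 and 126 with dmPGE2+APAP. Hosts such as the cyclic AMP response element binding protein gene Creb1 and its coactivators Crebbp and Ep300 were tested, and none passed.

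The paraspeckle and nuclear long non-coding RNA list had 6 of 17 genes tested: Cpsf6, Pspc1, Xrn2, Neat1, Sfpq and Sfswap. None had a higher mean with dmPGE2+APAP, and group ranges lay apart below in 2, Neat1 and Sfpq. Over all 2067 tested host genes, 1046 had a higher mean with dmPGE2+APAP and 105 lay apart below (5.08%). The median log2 fold change of the 5 not listed at 0 in a group was -0.69. Neat1 passed and the others did not. Sfpq had 15, 15 and 16 reads with APAP and was listed at 0 with dmPGE2+APAP and in the saline columns. Cpsf6, the most abundant, had 102, 95 and 54 reads against 95, 90 and 86 (log2 fold change -0.08 ± 0.28). The list's summed level was 2960 to 3941 CPM with APAP and 1864 to 2182 CPM with dmPGE2+APAP, so it did not overlap between groups. That of the prostaglandin and cyclic AMP signalling list did not overlap either, with Akap1 in its sum. The paraspeckle list was chosen with earlier results on Neat1 known, so its direction is not independent evidence.

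Drug handling and injury lists held no call. Of 12 tested hosts of drug metabolism 0 passed, with a median of 0.11. Slco1b2, the most abundant, had 275, 246 and 154 reads and then 387, 266 and 381, with its groups apart (0.41 ± 0.16, edgeR adjusted p = 0.658). None passed among 7 hosts of the NRF2 and glutathione response (median 0.02), 8 of stress kinases and cell death (-0.31), 11 of inflammation and the acute phase (0.24) or 18 of proliferation and regeneration (-0.24). Gclc, a subunit of the rate-limiting enzyme of glutathione synthesis, had 95, 78 and 89 reads against 118, 72 and 81. Nfkb1, a subunit of NF-kappaB, had 256, 198 and 94 against 246, 222 and 253. Fbxw7 and Smad4 led the other 2 lists, at -0.21 ± 0.26 and 0.40 ± 0.21.

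Metabolic hosts made up the larger lists. Of 31 lipid, sterol and bile acid hosts and 28 amino acid and carbohydrate hosts 0 passed, with medians of 0.10 and 0.04. Aass led the second with 1874, 1422 and 948 reads and then 1724, 1051 and 1383 (-0.24 ± 0.11, edgeR adjusted p = 0.808). Among 15 hosts that handle splicing or circRNAs 0 passed (median -0.04), and Rbm33, the most abundant, was at 0.00 ± 0.16. Of 25 widely reported circRNA hosts tested 0 passed, with a median of -0.01, and Zfp609 passed among the 24 with reads in all 6. Of 10 calcium and ion channel hosts tested 0 passed, with a median of 0.16, and Kcnn2 passed among the 8 with reads in all 6. The inositol trisphosphate receptor gene Itpr2, with 11 tested rings, stood at 0.05 ± 0.23.

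Cell type markers were few among circRNA hosts. Of 27 hepatocyte genes 9 were tested and 0 passed, with a summed level of 3810 to 4851 CPM with APAP and 2970 to 4147 CPM with dmPGE2+APAP. Cps1, the urea cycle enzyme that led them, gave 0.01 ± 0.25. The Kupffer cell and macrophage list had 3 of 25 genes tested, at 1256 to 3322 and 2666 to 2854 CPM, and the lowest value was that of APAP 3, with 2540 CPM the next lowest in the APAP group. APAP 3 was also the lowest of the sinusoidal list. Mrc1 led it, with 176, 158 and 34 reads against 142, 144 and 135. Sinusoidal endothelial genes (4 of 31 tested) summed to 780 to 2374 and 1551 to 1907 CPM, stellate and fibroblast genes (2 of 29) to 72.2 to 258 and 141 to 314 CPM, and cholangiocyte genes (2 of 17) to 228 to 331 and 200 to 595 CPM. Neutrophil and lymphocyte genes had 1 of 28 tested, Ets1, and summed to 0 to 175 and 60.5 to 183 CPM. In each of these lists the groups overlapped. Whether cell composition plays a part in the results above was not tested.

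**Figure D5:**
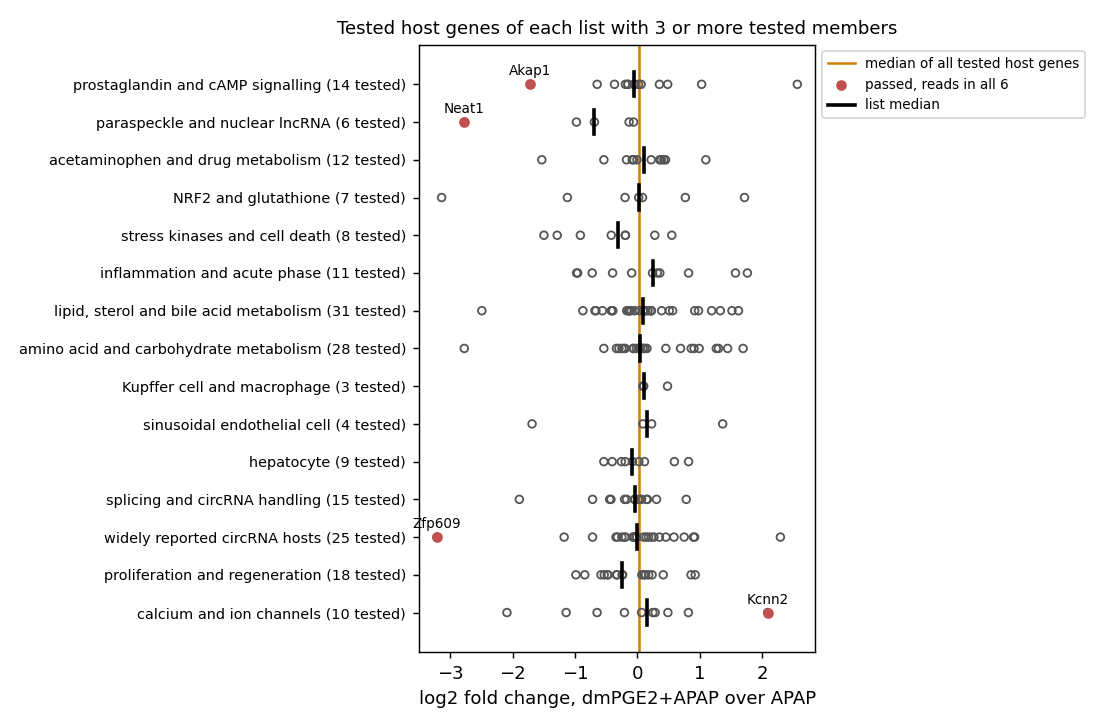
Log2 fold change of dmPGE2+APAP over APAP of each tested host gene (open circles) in the lists with at least 3 tested members, with list medians as black bars, the median of all tested host genes as an orange line and filled red circles for hosts that passed among those with reads in all 6. Host genes listed at 0 in a group are left out. The paraspeckle list has the lowest median, -0.69 over 5 host genes.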

How the data were processed

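Back-splice reads of 6 liver libraries were compared. Per the file headers, the deposited table gives where each circRNA lies, its host gene and, per library, a count and a TPM value. The authors' counts are whole numbers and unscaled. The deposited TPM is the same count times 1 constant per library, and it was not tested. A further 3 columns, TPM of the saline libraries, were not used. The table also lists, as deposited, non-junction reads, those at a ring's ends without the back-splice. In 1753 of 11312 circRNAs the list was stored as 1 unsplittable number and was not used. Per the submitters' processing notes, HISAT2 and the build GRCm38 (mm10) are named, with no role given. The circRNA caller is not given in the sources used here. Starts were raised by 1 to count from 1. Of 251 circRNAs without a gene name, 119 took the symbol of their gene ID. The remaining 132 (intergenic) were left out of host sums and held 1.34% of reads in the 6 libraries.

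Counts were tested with edgeR 4.0.16 (R 4.3.3) by the quasi-likelihood F test, TMM scaling on circRNA totals and Benjamini-Hochberg adjustment at 0.05. Rows with 5 or more reads in 3 or more of the 6 libraries were tested, and rows with reads in all 6 were fitted and adjusted apart. Ring shares and circular to non-junction ratios used interaction terms of the same model. Library-wide values used exact permutation tests over 20 arrangements. Thinning used 20 draws. The scripts were tested on simulated data. No fold is given against a group listed at 0.

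Members, host gene lists, the rule for named circRNAs and the alternatives were chosen with earlier results of these data known. The rule names every circRNA and host gene past the threshold, those with groups apart and the smallest p (up to 8 in each direction with reads in all 6, up to 4 otherwise), the 8 most abundant, all tested rings of passing hosts, and Kcnn2, Neat1, Zfp609 and Hipk3. Of the up to 3 hosts it takes per list, the most abundant is reported. Same-numbered libraries of the groups did not deviate together (r -0.04, 0.03 and -0.04 over 1633 circRNAs). With a median of 23 reads per library this cannot exclude pairing, and the main test treated the libraries as unpaired. Alternatives were no TMM, DESeq2 1.42.0, limma-voom (limma 3.58.1), a replicate block, robust dispersion, all 9 libraries, other filters and leaving out each library.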

Additional observations from a re-analysis of the deposited data

How the results depend on the processing

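Of 3482 tested circRNAs 0 passed, against 5 with DESeq2, 5 with limma-voom, 4 with the replicate block, 1 with robust dispersion, 3 with all 9 libraries, 5 with at least 5 reads in all 6, 15 with no filter, 5 among rows with reads in all 6, and 0 to 2 with a library left out. The 5 calls among circRNAs with reads in all 6 became 3 without TMM, 3 with DESeq2, 2 with limma-voom, 0 with all 9 libraries (38 at an unadjusted p under 0.05) and 0 to 3 with a library left out, and 4 with the replicate block. The 1 tested host gene became 8 with DESeq2, 4 with limma-voom, 2 with the replicate block, 3 with all 9 libraries, 9 with at least 5 reads in all 6, 11 with no filter, 8 with reads in all 6 and 0 to 3 with a library left out. The 8 host genes with reads in all 6 became 3 with DESeq2, 5 with limma-voom, 1 with the replicate block, 5 with robust dispersion, 2 with all 9 libraries and 4 to 7 with a library left out. The cause of these differences was not tested. Calls among rows with reads in all 6 were recounted under alternatives added after seeing the data.

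With a library left out, the difference (dmPGE2+APAP minus APAP) in circRNAs after thinning ranged from -104.2 to 842.5, that in the circular share from -0.42 to 4.31 percentage points, with APAP 3 left out at the low end of both, and that in the exonic share from -0.21 to 0.19 points. Some estimates near 0 turned sign with a library left out. As log2 ranges these were Arhgap10 novel_circ_0013827 -0.92 to 0.21, Nfix mmu_circ_0001704 -0.11 to 0.018, Rmdn2 novel_circ_0005335 -0.23 to 0.96, the Rnf169 ring -0.058 to 0.042, Tmem56 novel_circ_0009041 -0.045 to 0.076, Upp2 novel_circ_0008619 -1.42 to 0.16 and novel_circ_0008620 -0.56 to 0.13, and novel_circ_0010359 -0.86 to 0.30. For host genes they were Cps1 -0.17 to 0.10, Cpsf6 -0.17 to 0.0080, Fn1 -0.12 to 1.46, Gclc -0.39 to 0.0016, Itpr2 -0.081 to 0.15, Mrc1 -0.29 to 0.37, Nr1h4 -0.028 to 0.15, Pkhd1 -0.083 to 0.52, Ptgr2 -0.15 to 0.10, Rbm33 -0.068 to 0.068 and Rnf169 -0.076 to 0.014. The Tmem56 ring was also at -0.020 without TMM, and the host gene Cps1 at -0.0050 without TMM, -0.0089 with all 9 libraries and -0.0025 with at least 5 reads in all 6. In the fit of all tested rows the Rnf169 ring mmu_circ_0001605 was at 0.0042 and the host gene Rbm33 at 0.016. Of 1160 comparisons of a named circRNA or host gene with an alternative, 1017 kept direction and side of the threshold, 92 lost the call, 13 gained one and 38 turned sign. Only items called in the main fit could lose a call, and the 1017 include items uncalled in both. These counts therefore do not measure how stable the calls were. Depth limits single rings, with a median of 23 reads per library among those with reads in all 6. One arm falls to 2 libraries when a library is left out.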
